A study of Homo sapiens with 9 samples.

Results

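The genes described here are 10 regulators of cytokine signalling, namely the transcription factor gene STAT3, the feedback inhibitor genes SOCS1, SOCS2, SOCS3 and CISH, the C/EBP transcription factor genes CEBPB and CEBPD, the kinase gene PIM1, and the transcriptional regulator genes BCL6 and BCL3. They were chosen by gene symbol, and all 10 were found among the 58735 genes of the table. Transcripts were measured by RNA sequencing in MDA-MB-231 cells of wild type genotype, a line grown from a human breast cancer that is mesenchymal in character and lacks the oestrogen receptor. TIS CM cells received medium from cultures of the same line that 72 h of nocodazole at 100 ng/ml, a drug that depolymerizes microtubules, had made senescent (therapy-induced senescence). Cont CM cells received medium from cultures that were not senescent, and No CM cells received medium alone. There were 3 libraries in each group. Time in these media is 72 h by the sample labels and 48 h by the series design text. The labels number the replicates but do not call them separate cultures, and every p-value here therefore reflects the spread between these libraries alone, which may be technical.

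Cytokines of the interleukin-6 family bind receptors that share the subunit gp130, which activates JAK kinases, and the kinases phosphorylate STAT3, which then enters the nucleus and switches on target genes. SOCS3 is among those targets, and its protein binds gp130 and the JAKs and so ends the signal. SOCS1 blocks JAKs downstream of interferon receptors, while SOCS2 and CISH act mainly on receptors that signal through STAT5, such as those for growth hormone. C/EBP-beta and C/EBP-delta work with STAT3 and NF-kB at genes of the acute-phase and inflammatory response, and in senescent cells C/EBP-beta is known as a driver of secreted cytokine genes. PIM1 and BCL6 are targets of STAT factors, and BCL3 is an atypical I-kB protein that binds NF-kB dimers in the nucleus.

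STAT dimers bind the letters TTCNNNGAA and C/EBP dimers bind letters such as TTGCNNAA. Both were searched, on both strands, in RefSeq promoter windows of build GRCh38.p14 that run from 250 bases before to 50 bases after a gene's start. The table held 11 windows for 8 of the 10 genes, all but SOCS2 and CEBPD. These windows follow RefSeq starts, which can differ from the starts of the gene spans in the deposited data. No window of SOCS3, BCL3, PIM1 or BCL6 held the start of its span, at bases 78360077, 44747705, 37170203 and 187745727. A window of these genes without a match therefore does not describe the sequence around that start. A match to the STAT letters stood in 2 of the 11 windows, against 7.66% of 35116 windows of the same length, and a match to the C/EBP letters in 0 of the 11, against 10.5% of all windows. The 2 windows with STAT matches belonged to CISH and BCL6, each with 4 matches, and these are shown because they are the pair with any match. The 4 matches of CISH lay in a pair of clusters upstream of the gene, on the minus strand of chr3:50611976-50612024 and chr3:50611858-50611923. The first match of BCL6 lay on the minus strand of chr3:187745478-187745506, which is inside the gene span of the deposited data. Capitals mark the matches, written 5′ to 3′.
CISH, bases -250 to -202: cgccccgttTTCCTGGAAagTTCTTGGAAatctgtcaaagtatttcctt
CISH, bases -149 to -84: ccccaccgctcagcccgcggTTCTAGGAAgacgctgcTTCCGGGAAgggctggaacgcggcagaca
BCL6, bases -38 to -10: gaagctcaaaTTCCGAGAAttgagctctg
A match describes letters and is not a measured binding site.

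The libraries held 32636708 to 39189036 fragments in genes. The mean levels of VIM, CD44, CAV1 and AXL, which mark mesenchymal breast cancer cells, were 365, 85.3, 207 and 205 FPKM (fragments scaled to gene length and library size). ESR1 and PGR, the oestrogen and progesterone receptor genes, did not exceed 0.01 FPKM in any library. CDH1 and GATA3, epithelial and luminal genes usually low in this line, averaged 0.438 and 5.39 FPKM in TIS CM, 0.299 and 5.09 FPKM in Cont CM, and 1.17 and 6.35 FPKM in No CM, so GATA3 was present. The summed levels of 4 fibroblast and 3 endothelial markers lay between 1.08 and 1.36 and between 0.364 and 0.612 FPKM. The summed level of 4 leukocyte markers was 4.18 to 4.88 FPKM in TIS CM, 3.14 to 3.64 FPKM in Cont CM and 4.04 to 5.19 FPKM in No CM, nearly all of it CD14, while PTPRC, which encodes CD45, averaged 0.0135 FPKM. CD14, CDH1 and GATA3 were called lower in Cont CM against No CM (limma adjusted p = 0.0173, 0.000584 and 0.0229), and CDH1 also in TIS CM against No CM (log2 fold change -0.83, limma adjusted p = 0.0226). In bulk RNA fewer cells of a type and less RNA per cell cannot be told apart, and the part of these genes in the results was not tested. In Cont CM replicate 2 a trend with GC content and length took 16.7% of the variance around the gene means, and in the other 8 libraries 0.0923% to 4.87%.

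Averaged over the 9 libraries, CEBPB was the most abundant of the 10 transcripts at 54.5 FPKM, followed by CEBPD at 27.5, PIM1 at 23.0, STAT3 at 18.9, BCL3 at 13.7, SOCS3 at 11.6, SOCS1 at 5.71, BCL6 at 4.20, SOCS2 at 2.14 and CISH at 0.183 FPKM. CEBPB stood at percentile 94.1 and SOCS2 at percentile 27.1 of the mean levels of the 13912 genes tested, those with a mean of at least 0.5 FPKM. CISH fell below that minimum, so 9 of the 10 genes were tested. Some neighbours in this order could not be separated. In Cont CM the libraries of PIM1 (22.1 to 24.7 FPKM) lay inside those of CEBPD (21.5 to 25.5 FPKM), and those of BCL6 (4.53 to 4.94 FPKM) inside those of SOCS1 (3.63 to 5.03 FPKM), while both pairs were apart in TIS CM and in No CM. BCL3 and SOCS3 overlapped in Cont CM, at 10.6 to 12.6 and 8.79 to 11.1 FPKM, and were apart in TIS CM and in No CM.

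**Figure D1:**
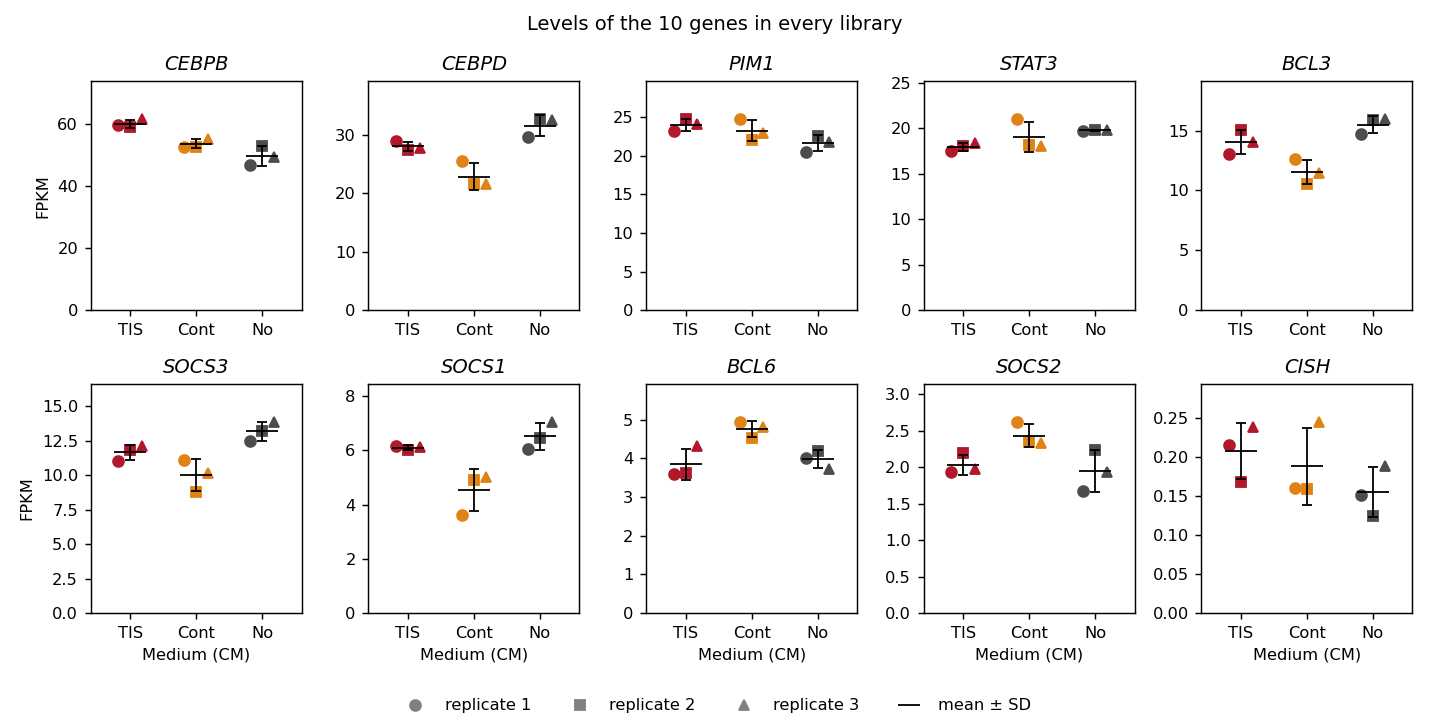
FPKM of the 10 genes in every library, in TIS CM, Cont CM and No CM cells from left to right, with 1 symbol per replicate and the mean ± SD of 3 libraries; each panel starts at 0. CEBPD, BCL3, SOCS3 and SOCS1 were lower in every Cont CM library than in every No CM library, while CEBPB was highest in TIS CM, at 59.0 to 61.6 FPKM.

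STAT3 passed in none of the 3 comparisons. Its level was 17.50, 18.04 and 18.36 FPKM in TIS CM, 20.98, 18.17 and 18.04 FPKM in Cont CM, and 19.7, 19.8 and 19.8 FPKM in No CM. All 3 TIS CM libraries were below all 3 No CM libraries, and Cont CM replicate 1 was above the other 8. On the scale log2(FPKM + 0.5), used for every fold change here, STAT3 differed by -0.08 (SE 0.06, limma adjusted p = 0.428) between TIS CM and Cont CM, by -0.14 (SE 0.06, limma adjusted p = 0.335) between TIS CM and No CM, and by -0.06 (SE 0.06, limma adjusted p = 0.546) between Cont CM and No CM. Without Cont CM replicate 1 the last difference was -0.12 and passed (limma adjusted p = 0.0321), and that between TIS CM and Cont CM was -0.0109 (limma adjusted p = 0.866). The STAT3 difference between Cont CM and No CM was -0.0232 without Cont CM replicate 2 and -0.0185 without Cont CM replicate 3 (limma adjusted p = 0.843 and 0.879).

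The inhibitor genes SOCS1 and SOCS3 were lower in Cont CM against No CM. SOCS1 (chromosome 16, 11254405 to 11256200, hg38) read 6.15, 5.99 and 6.13 FPKM in TIS CM, 3.63, 4.91 and 5.03 FPKM in Cont CM, and 6.04, 6.46 and 7.04 FPKM in No CM, from 215 to 434 fragments a library. The Cont CM libraries lay below all others, replicate 1 the lowest, and TIS CM overlapped No CM. SOCS1 fell 1.41-fold in Cont CM, to 4.52 ± 0.775 FPKM against 6.51 ± 0.502 FPKM in No CM (SD, n = 3 each, log2 fold change -0.49, SE 0.10, limma adjusted p = 0.0147). For SOCS1 the log2 fold change of TIS CM was 0.40 (SE 0.10, limma adjusted p = 0.0621) against Cont CM and -0.09 (SE 0.10, limma adjusted p = 0.779) against No CM. Without Cont CM replicate 1 the SOCS1 difference between TIS CM and Cont CM was 0.27 and passed (limma adjusted p = 0.0387).

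SOCS3 (chromosome 17, 78356778 to 78360077) was measured at 11.05, 11.79 and 12.10 FPKM in TIS CM, 11.1, 8.79 and 10.2 FPKM in Cont CM, and 12.5, 13.2 and 13.8 FPKM in No CM. The No CM libraries were the 3 highest, and Cont CM replicate 1 stood among the TIS CM libraries. SOCS3 fell 1.30-fold in Cont CM, to 10.0 ± 1.16 FPKM against 13.2 ± 0.675 FPKM in No CM (SD, n = 3 each, log2 fold change -0.38, SE 0.08, limma adjusted p = 0.0126). The difference of TIS CM from Cont CM was 0.21 (SE 0.08, limma adjusted p = 0.147), and that of TIS CM from No CM was -0.17 (SE 0.08, limma adjusted p = 0.386). Without Cont CM replicate 1 the SOCS3 difference between TIS CM and Cont CM was 0.29 and passed (limma adjusted p = 0.047), and without Cont CM replicate 2 it was 0.13 (limma adjusted p = 0.307). Leaving out No CM replicate 3 ended the Cont CM against No CM calls of SOCS1 and SOCS3, with limma adjusted p of 0.0605 and 0.0536.

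SOCS2, 1 of the 2 inhibitors tied to STAT5, passed in none of the 3 comparisons. SOCS2 was low, at 1.94, 2.19 and 1.97 FPKM in TIS CM, 2.62, 2.35 and 2.33 FPKM in Cont CM, and 1.67, 2.24 and 1.93 FPKM in No CM. Every Cont CM library was above the other 6, and TIS CM and No CM overlapped. The log2 fold change of SOCS2 was -0.21 (SE 0.09, limma adjusted p = 0.211) for TIS CM against Cont CM, 0.06 (SE 0.09, limma adjusted p = 0.853) for TIS CM against No CM, and 0.27 (SE 0.09, limma adjusted p = 0.0831) for Cont CM against No CM. The last passed without No CM replicate 2, at 0.35 (limma adjusted p = 0.0422), with protein-coding genes only (limma adjusted p = 0.0477) and with voom (adjusted p = 0.0414).

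CISH had 0.216, 0.168 and 0.237 FPKM in TIS CM, 0.160, 0.158 and 0.244 FPKM in Cont CM, and 0.152, 0.125 and 0.188 FPKM in No CM, which came from 23 to 49 fragments a library. The groups overlapped. With no minimum level the tests gave limma adjusted p between 0.673 and 0.865 for CISH, which at this depth shows no detectable difference. CISH shares 218 of its 5112 exonic bases with MAPKAPK3 on the opposite strand, which stood at 24.6 to 28.2 FPKM, and no source used here says whether counting used strand, so part of the CISH fragments cannot be told apart from that gene. CEBPB and SOCS2 overlap the antisense genes CEBPB-AS1 and SOCS2-AS1 over 231 and 277 exonic bases, with mean levels of 2.16 and 0.300 FPKM for these antisense genes.

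CEBPD was lower in Cont CM than in both other groups. CEBPD (chromosome 8, 47736909 to 47739086) stood at 28.9, 27.5 and 27.8 FPKM in TIS CM, 25.5, 21.6 and 21.5 FPKM in Cont CM, and 29.6, 32.7 and 32.6 FPKM in No CM. The 3 groups did not overlap, with No CM the highest and Cont CM the lowest. CEBPD fell 1.38-fold in Cont CM, to 22.9 ± 2.27 FPKM against 31.6 ± 1.76 FPKM in No CM (SD, n = 3 each, log2 fold change -0.46, SE 0.07, limma adjusted p = 0.00295). In TIS CM it was 1.23-fold higher, at 28.1 ± 0.753 FPKM, than in Cont CM (log2 fold change 0.29, SE 0.07, limma adjusted p = 0.0463), and its difference from No CM was -0.17 (SE 0.07, limma adjusted p = 0.332).

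The rise of CEBPD in TIS CM over Cont CM sat close to the threshold. It passed without Cont CM replicate 1 (log2 fold change 0.37, limma adjusted p = 0.00995) and did not pass when any other single library was left out, with limma adjusted p between 0.0567 and 0.146 and log2 fold changes between 0.25 and 0.31. Its fall in Cont CM against No CM passed in all 9 omissions. The 2 comparisons share the Cont CM libraries and are not independent.

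CEBPB (chromosome 20, 50190734 to 50192689) was highest in TIS CM. Its libraries read 59.8, 59.0 and 61.6 FPKM in TIS CM, 52.8, 52.8 and 55.3 FPKM in Cont CM, and 46.8, 53.0 and 49.3 FPKM in No CM. The TIS CM libraries were above the other 6, and Cont CM overlapped No CM through No CM replicate 2. CEBPB rose 1.21-fold in TIS CM, to 60.1 ± 1.33 FPKM against 49.7 ± 3.15 FPKM in No CM (SD, n = 3 each, log2 fold change 0.27, SE 0.05, limma adjusted p = 0.0412).

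Against Cont CM, TIS CM had a log2 fold change of 0.16 (SE 0.05, limma adjusted p = 0.0821) for CEBPB, and Cont CM against No CM one of 0.11 (SE 0.05, limma adjusted p = 0.152). The rise over No CM lost its call without any of the 3 TIS CM libraries, without Cont CM replicate 3, and without No CM replicates 1 or 3. In these 6 omissions the limma adjusted p of CEBPB lay between 0.0639 and 0.176 and the log2 fold change between 0.23 and 0.29.

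PIM1, a serine/threonine kinase that promotes survival, passed in none of the 3 comparisons. Its libraries read 23.2, 24.7 and 24.1 FPKM in TIS CM, 24.7, 22.1 and 22.9 FPKM in Cont CM, and 20.5, 22.6 and 21.8 FPKM in No CM. All TIS CM libraries were above all No CM libraries. The log2 fold changes of PIM1 were 0.05 (SE 0.05, limma adjusted p = 0.628) for TIS CM against Cont CM, 0.15 (SE 0.05, limma adjusted p = 0.251) for TIS CM against No CM, and 0.10 (SE 0.05, limma adjusted p = 0.23) for Cont CM against No CM.

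BCL6, a zinc finger repressor, stood at 3.61, 3.63 and 4.32 FPKM in TIS CM, 4.94, 4.53 and 4.82 FPKM in Cont CM, and 4.01, 4.21 and 3.74 FPKM in No CM. Each Cont CM library was above the other 6. Neither difference of BCL6 passed, with log2 fold changes of -0.28 (SE 0.07, limma adjusted p = 0.067) for TIS CM against Cont CM and 0.23 (SE 0.07, limma adjusted p = 0.0635) for Cont CM against No CM. The difference between Cont CM and No CM passed without TIS CM replicate 3 (limma adjusted p = 0.0384), an omission that changes only the shared estimate of the spread. With protein-coding genes only and with voom, BCL6 was called lower in TIS CM against Cont CM (limma adjusted p = 0.0375 and 0.0308) and higher in Cont CM against No CM (limma adjusted p = 0.0396 and 0.0352). Between TIS CM and No CM the BCL6 difference was -0.05 (SE 0.07, limma adjusted p = 0.846).

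BCL3 (chromosome 19, 44747705 to 44760044) was lower in Cont CM. It read 13.0, 15.1 and 14.1 FPKM in TIS CM, 12.6, 10.6 and 11.5 FPKM in Cont CM, and 14.7, 15.9 and 15.9 FPKM in No CM. Each Cont CM library was below the other 6, and TIS CM overlapped No CM. BCL3 fell 1.33-fold in Cont CM, to 11.6 ± 1.02 FPKM against 15.5 ± 0.704 FPKM in No CM (SD, n = 3 each, log2 fold change -0.41, SE 0.07, limma adjusted p = 0.00632), and passed in all 9 omissions. Its log2 fold change was 0.27 (SE 0.07, limma adjusted p = 0.064) for TIS CM against Cont CM, which passed without Cont CM replicate 1 at 0.34 (limma adjusted p = 0.0272), and -0.14 (SE 0.07, limma adjusted p = 0.447) for TIS CM against No CM.

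In all, limma called 1 of the 9 tested genes in TIS CM against Cont CM, and it was higher, where 4.48% of the 13912 genes were called, 2.9% as higher and 1.57% as lower. For TIS CM against No CM it called 1 of 9, also as higher, against 0.855% of all genes, 0.403% as higher and 0.453% as lower. For Cont CM against No CM it called 4 of 9, all as lower, against 16.3% of all genes, 7.77% as higher and 8.56% as lower. The median log2 fold changes of the 9 genes were 0.16, -0.09 and -0.06 in these 3 comparisons, beside 0.00345, 0.00301 and -0.000559 over all genes tested. The libraries of TIS CM and Cont CM did not overlap for 6 of the 9 genes, 4 of them higher and 2 lower, against 28.6% of all genes, 15% as higher and 13.6% as lower. Those of TIS CM and No CM did not overlap for 5, 2 of them higher and 3 lower, against 24.4% of all genes, 12.7% as higher and 11.6% as lower. Those of Cont CM and No CM did not overlap for 6, 2 of them higher and 4 lower, against 33.3% of all genes, 16.6% as higher and 16.8% as lower. Over all genes, scaling to equal library sums gave 284 higher and 395 lower calls in TIS CM against Cont CM, where the reported fit gave 404 and 219. It gave 28 and 106 in TIS CM against No CM, where the reported fit gave 56 and 63, and 862 and 1399 in Cont CM against No CM, where the reported fit gave 1081 and 1191. No called fold change among the 9 genes reached 1.5-fold.

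**Figure D2:**
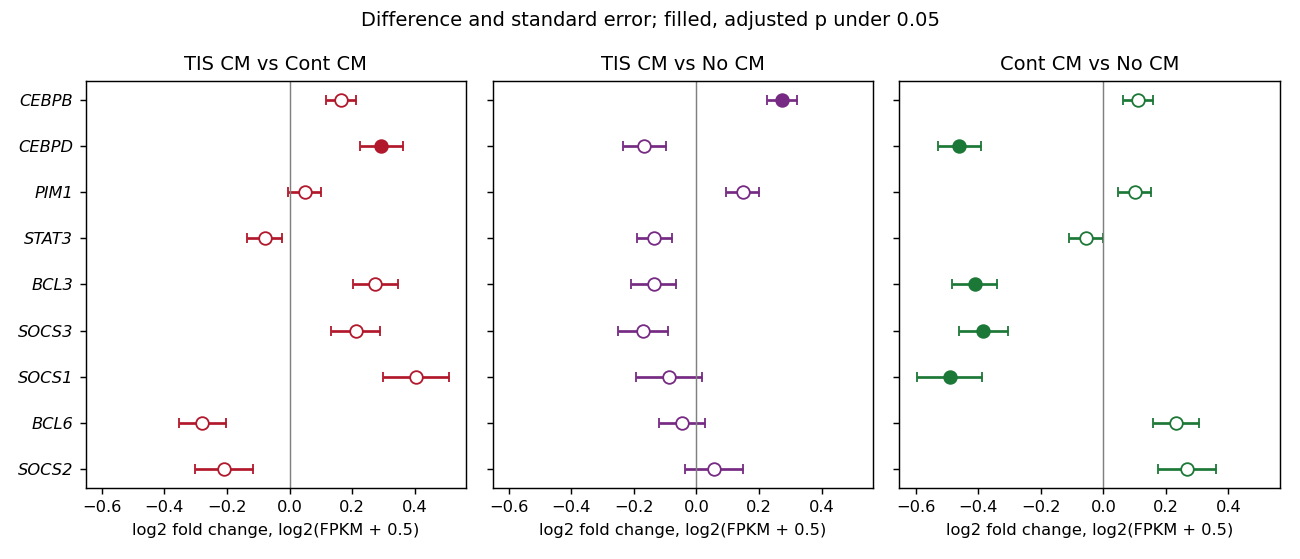
Log2 fold change on log2(FPKM + 0.5), with its standard error, of the 9 tested genes in TIS CM against Cont CM, TIS CM against No CM and Cont CM against No CM (3 libraries a group); filled points have a limma adjusted p under 0.05. CEBPD, BCL3, SOCS3 and SOCS1 are filled on the left in Cont CM against No CM, CEBPD on the right in TIS CM against Cont CM, and CEBPB on the right in TIS CM against No CM.

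The 4 genes that fell in Cont CM are rich in G and C. The longest transcript held 70.0% G and C for CEBPD, 69.1% for SOCS1, 67.4% for BCL3 and 60.0% for SOCS3, against a median of 48.5% over the genes tested. CEBPB held 66.2% and was not called in Cont CM against No CM, while PIM1 held 56.1%, STAT3 50.4%, BCL6 49.9% and SOCS2 47.3%. Across genes, which are not independent replicates, the fold change correlated with GC content at r = 0.33 in TIS CM against Cont CM, -0.002 in TIS CM against No CM and -0.26 in Cont CM against No CM. Whether GC content had a part in the differences of these genes was not tested. A GC trend that differs between the groups cannot be told apart from an effect of the media. The trend also differed inside Cont CM. Deviations from the gene means correlated with GC content at r = -0.03, -0.41 and -0.20 in its replicates 1, 2 and 3.

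After the GC content and length trend of every library was removed, CEBPD, BCL3 and SOCS3 were still called lower in Cont CM against No CM, with log2 fold changes of -0.31, -0.28 and -0.30 (limma adjusted p = 0.00509, 0.00794 and 0.0108). SOCS1 was then at -0.34 and did not pass (limma adjusted p = 0.101). CEBPB, at 0.24 (limma adjusted p = 0.0132), and PIM1, at 0.155 (limma adjusted p = 0.0373), were called higher in Cont CM than in No CM in that fit. The TIS CM against Cont CM difference of CEBPD shrank to 0.14 and did not pass (limma adjusted p = 0.172), and the differences of BCL3, SOCS1, SOCS3 and CEBPB shrank to 0.14, 0.25, 0.13 and 0.03. In TIS CM against No CM, where fold changes hardly followed GC content, CEBPB kept a log2 fold change of 0.27 (limma adjusted p = 0.0405).

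**Figure D3:**
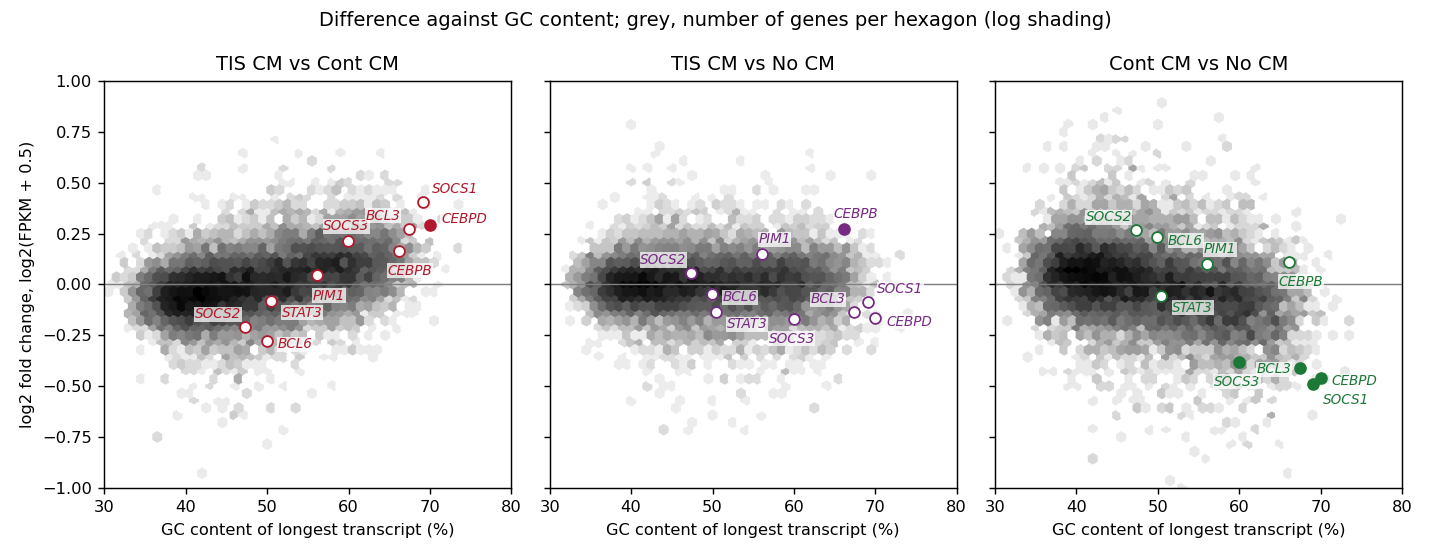
Log2 fold change (vertical) against the GC content of the longest transcript in percent (horizontal) for the tested genes within the axes, as grey hexagons shaded by the log of the number of genes, with the 9 tested regulators as labelled points, filled where the limma adjusted p is under 0.05. The cloud tilts up to the right in TIS CM against Cont CM (r = 0.33) and down in Cont CM against No CM (r = -0.26), and CEBPD, SOCS1, BCL3 and CEBPB lie at its G- and C-rich end. Of these, CEBPB goes against the tilt in Cont CM against No CM, with a log2 fold change of 0.11.

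**Figure D4:**
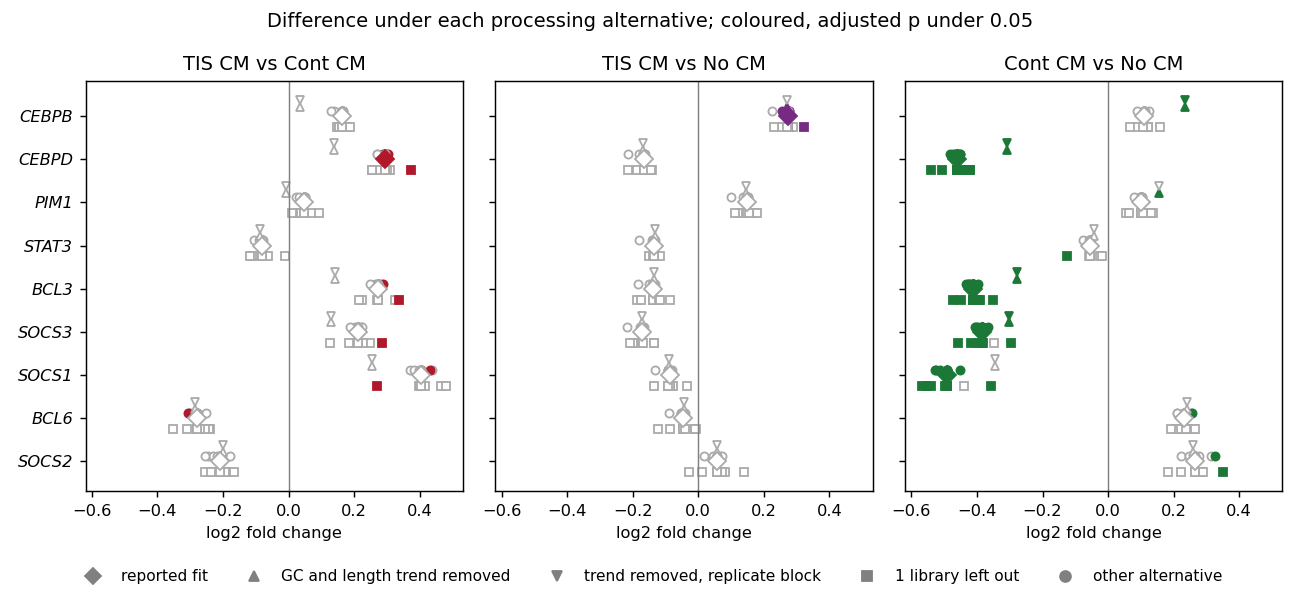
Log2 fold change of the 9 tested genes in the reported fit (diamond) and under each processing alternative, coloured where the limma adjusted p is under 0.05. CEBPD and BCL3 are coloured in every fit of Cont CM against No CM, whereas CEBPD in TIS CM against Cont CM is coloured in some fits only.

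Among the ligands and receptors upstream, IL6, IL11 and OSMR were higher in Cont CM than in No CM. Of 9 tested interleukin-6 family ligands and receptors, 3 rose, 1 fell and 5 did not pass in Cont CM against No CM. Over all genes tested, 7.77% were called higher and 8.56% lower in that comparison. The rest of the 12 listed were below the minimum level. They were the receptor genes IL6R and IL11RA, at means of 0.318 and 0.268 FPKM, and the ligand gene OSM, at 0 FPKM in every library. IL6, the ligand that gives the family its name, rose to 98.5, 52.3 and 53.6 FPKM in Cont CM, against 33.5, 38.9 and 36.7 FPKM in No CM (log2 fold change 0.83, SE 0.20, limma adjusted p = 0.0247), and its call was lost without No CM replicates 1, 2 or 3. IL11 rose 1.52-fold (limma adjusted p = 0.00786) and OSMR, the oncostatin M receptor, 1.15-fold (limma adjusted p = 0.0154), while LIFR, the leukaemia inhibitory factor receptor, fell 1.19-fold (limma adjusted p = 0.0458). The OSMR call was lost without No CM replicates 2 or 3, and that of LIFR in 8 of the 9 omissions, all but Cont CM replicate 2. IL6ST, which encodes gp130, had 58.2 ± 1.58 FPKM in TIS CM, 62.3 ± 4.46 FPKM in Cont CM and 58.8 ± 4.06 FPKM in No CM (SD, n = 3 each) and passed in none of the 3 comparisons.

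OSMR fell 1.18-fold in TIS CM against Cont CM (limma adjusted p = 0.0242), the other 8 of the 9 did not pass, and the call was lost without any of the 3 TIS CM libraries or Cont CM replicate 2. Over all genes tested, 4.48% were called in that comparison, 1.57% as lower. None of the 9 was called in TIS CM against No CM. IL6 and IL11 stood at 42.7 to 44.6 and 38.9 to 42.0 FPKM in TIS CM, above every No CM library. Their log2 fold changes over No CM were 0.26 and 0.51 (limma adjusted p = 0.626 and 0.0890). Of the 9, 3 were higher and 1 lower without overlap of these libraries, against 12.7% and 11.6% of all genes.

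Of 8 tested JAK kinases and other STATs, 1 fell and 7 did not pass in Cont CM against No CM. Over all genes tested, 16.3% were called in that comparison, 8.56% as lower. STAT2, which acts in the type I interferon response, stood at 4.54 ± 0.110 FPKM in Cont CM and 5.47 ± 0.195 FPKM in No CM (SD, n = 3 each) and fell 1.18-fold (limma adjusted p = 0.00942). JAK1, a kinase bound to gp130, did not pass, with a log2 fold change of 0.07 (SE 0.07, limma adjusted p = 0.482). None of the 8 passed in TIS CM against Cont CM or against No CM.

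Further inhibitors were other SOCS genes, PIAS genes, phosphatases, the adaptor SH2B3 and the ubiquitin ligase CBL. Of the 14 tested, 2 rose, 1 fell and 11 did not pass in Cont CM against No CM. This was near the share over all genes tested, of which 16.3% were called, 7.77% as higher and 8.56% as lower. SOCS4 rose 1.18-fold (limma adjusted p = 0.0227) and PTPN11, the phosphatase SHP2, 1.14-fold (limma adjusted p = 0.0116), and PTPN1, a phosphatase of JAK2 and TYK2, fell 1.15-fold (limma adjusted p = 0.00781). SOCS4 lost that call without Cont CM replicate 2, No CM replicate 2 or No CM replicate 3, and PTPN11 without No CM replicate 3. SOCS4 fell 1.19-fold in TIS CM against Cont CM (limma adjusted p = 0.0435), a call that was lost in 8 of the 9 omissions, all but Cont CM replicate 3, and 13 did not pass. Over all genes tested, 4.48% were called in that comparison, 1.57% as lower. Both SOCS4 calls were also lost with the GC content and length trend removed. None of the 14 passed in TIS CM against No CM.

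Among 21 tested targets of STAT3 other than the 10 genes, 3 rose, 6 fell and 12 did not pass in Cont CM against No CM, with a median log2 fold change of -0.09. Over all genes tested, 7.77% were called higher and 8.56% lower in that comparison. The acute-phase genes SAA1 and SAA2, which C/EBP factors also drive, were lower in Cont CM, SAA1 at 263 ± 33.6 FPKM against 368 ± 29.5 FPKM in No CM (SD, n = 3 each, fall of 1.40-fold, limma adjusted p = 0.00931), and SAA2 fell 1.56-fold (limma adjusted p = 0.00927). These are near-identical copies, so the split of reads between them is uncertain. LCN2, another acute-phase gene, did not pass (log2 fold change -0.31, SE 0.18, limma adjusted p = 0.271). The rest of the 30 listed targets were below the minimum level, at means of 0 to 0.0483 FPKM. They were FGA, FGB, FGG, FGL1, SERPINA3, LBP, HP, A2M and CRP. FOS and JUNB, members of the AP-1 family, fell 3.40-fold and 1.32-fold (limma adjusted p = 0.00504 and 0.00788). IER3, an immediate early gene, rose 1.58-fold (limma adjusted p = 0.0138), VEGFA, an angiogenic growth factor, 1.46-fold (limma adjusted p = 0.00542) and OSMR as above. JUNB lost its call with the GC content and length trend removed, and IER3 lost its own without No CM replicate 3.

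Of the 21 STAT3 targets, 2 rose, 1 fell and 18 did not pass in TIS CM against Cont CM. Over all genes tested, 2.9% were called higher and 1.57% lower in that comparison. SAA1 was 1.31-fold higher (limma adjusted p = 0.0497), with 344 ± 18.9 FPKM in TIS CM against the Cont CM level above, and BIRC5, which encodes survivin, 1.25-fold higher (limma adjusted p = 0.0363), while OSMR was the gene that fell. The SAA1 call was lost in 8 of the 9 omissions, all but Cont CM replicate 3. That of BIRC5 was lost without any TIS CM library, Cont CM replicate 2 or No CM replicate 1, and both were lost with the GC content and length trend removed. None of the 21 passed in TIS CM against No CM. OSMR and IL6ST belong to this list and to the interleukin-6 family list.

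The remaining relatives did not pass in any of the 3 comparisons. They were CEBPG and DDIT3, the tested members among 4 other C/EBP family genes, 7 partners and relatives of PIM1, BCL3 and BCL6, and EPOR, the tested receptor among 4 that signal through STAT5. PIM3 and NFKB2, the most abundant of the 7, had 40.8 ± 0.353 and 24.0 ± 0.837 FPKM in TIS CM, 34.9 ± 4.68 and 23.1 ± 1.15 FPKM in Cont CM, and 40.1 ± 2.08 and 25.3 ± 0.7 FPKM in No CM (SD, n = 3 each). The growth hormone receptor gene GHR, at a mean of 0.00411 FPKM, and the prolactin receptor gene PRLR, at 0.346 FPKM, were below the minimum level.

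**Figure D5:**
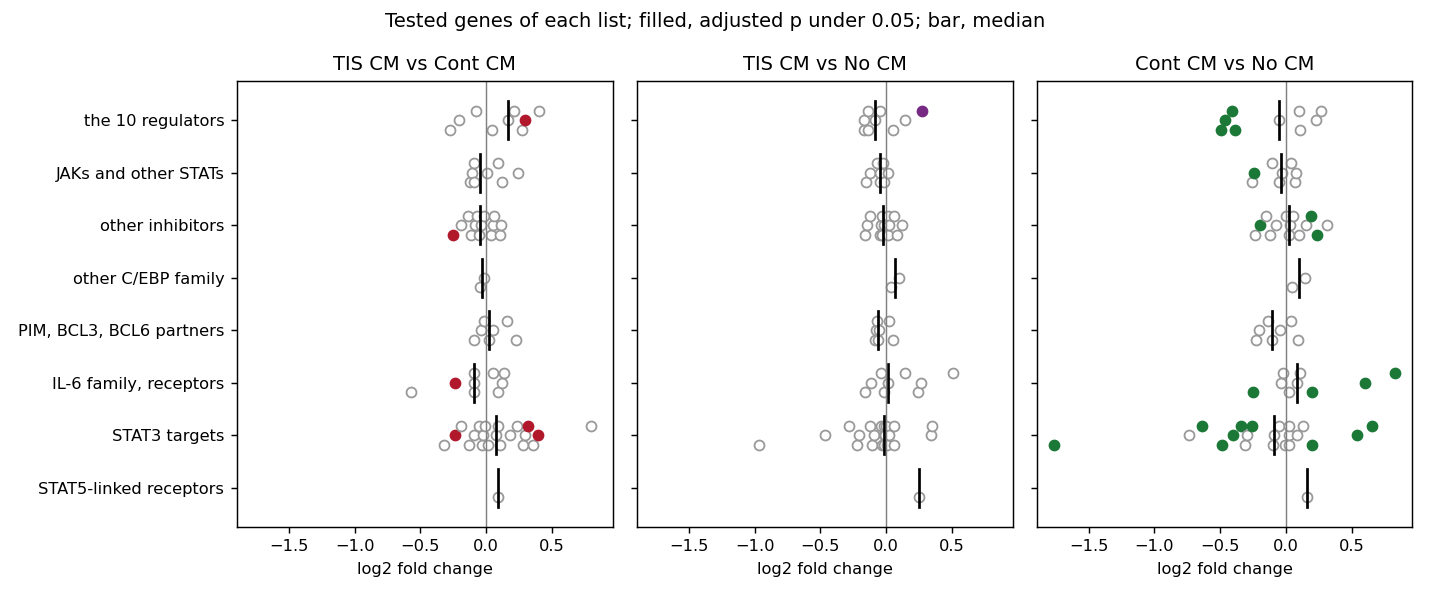
Log2 fold change of every tested gene in 8 lists of the pathway, in TIS CM against Cont CM, TIS CM against No CM and Cont CM against No CM; filled points have a limma adjusted p under 0.05 and the bar is the list median. Filled points stand on both sides of 0 for the STAT3 targets and the interleukin-6 family in Cont CM against No CM, and the 4 filled regulators all stand on the left.

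For each gene called in a comparison, the protein-coding genes of at least 5 FPKM whose levels followed it most closely over the 9 libraries were ranked by Pearson's r among 6877 genes, as a description in which all points share the same 3 groups of libraries. CEBPD was followed by PHF19, PCYT2 and EMP3 (r between 0.976 and 0.986), SOCS1 by ACOT7, STYXL1 and AURKB (0.979 to 0.986), and SOCS3 by SLC35B2, PYGB and CARD10 (0.974 to 0.981). BCL3 was followed by LSR, S100A4 and GTPBP6 (0.966 to 0.977) and CEBPB by LSM10, PODXL and RPL8 (0.928 to 0.96).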

How the data were processed

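Poly(A) RNA was captured on poly-T beads, fragmented and copied with random hexamers, per the labels' protocols. Build hg38, featureCounts 1.5.0-p3, HISAT2 2.0.5, DESeq2 1.20.0 and fastp are named, without settings, per the submitters' processing notes. The authors deposited FPKM for each gene and library with the gene length, and no source used here says whether counting used strand. FPKM times length was a whole multiple of 1 step in each library for 100% of values (tolerance 0.01), so fragments could be recovered, and 1 fragment on 1 kb was worth 0.0255 to 0.0303 FPKM.

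Genes with a mean of at least 0.5 FPKM (13912) were fitted as log2(FPKM + 0.5), which understates changes of low genes, with limma 3.58.1 in R 4.3.3 on all 9 libraries, with an intensity trend and Benjamini-Hochberg adjustment over all tested genes in each comparison; calls are at adjusted p under 0.05. GC content is that of the longest GENCODE 29 transcript (13909 genes). The 10 genes and the lists were chosen with earlier results of these data known. Named list genes are up to 4 called per direction with the largest fold change and up to 2 abundant ones not called, of which some are left out of the text. The fit was tested on simulated data with changes larger than any called among the 10 genes, so that test does not cover calls as small as these. Alternatives were other pseudocounts (0.1 and 1), filters, gene sets and scalings, voom with the fragment numbers, fits of 2 groups alone, a block for the replicate number, removal of the GC content and length trend, and each library left out. The labels give no batch or date. Figures used matplotlib 3.10.9.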

Additional observations from a re-analysis of the deposited data

How the results depend on the processing

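In TIS CM against Cont CM the count of called genes among the 9 was 1 in the reported fit and with pseudocounts of 0.1 or 1. It was 0 with no filter, equal library sums, quantile normalization, fits of 2 groups alone, the replicate block, the GC content and length trend removed, and both of the last together. It was 3 with a minimum mean of 2 FPKM, and 4 with protein-coding genes only or with voom, 3 of them higher and BCL6 lower. The calls over all genes moved too, with 623 in the reported fit and 207 with no filter. They were 782 with the higher minimum, 995 with protein-coding genes only and 1085 with voom. Equal library sums gave 679, quantile normalization 583 and fits of 2 groups alone 33. The replicate block gave 126, removal of the trend 182, and both together 10. Leaving out a library gave 0 to 4, with 4, all higher, without Cont CM replicate 1 (1084 over all genes) and 0 without each other library (11 to 448 over all genes). In TIS CM against No CM the count was 1 (119 over all genes). It was 0 with no filter, equal library sums, the replicate block, and that block with the GC content and length trend removed. Over all genes these gave 46, 134, 4 and 6 calls. Leaving out a library gave 0 to 1, beside 9 to 365 over all genes. In Cont CM against No CM it was 4, and between 3 and 6 in the other alternatives that kept all libraries. Over all genes those alternatives gave 1242 to 2694 calls. The 6, with protein-coding genes only and with voom, were 4 lower and 2 higher (BCL6 and SOCS2), beside 2591 and 2694 calls over all genes against 2272 in the reported fit. The 5 with the trend removed (2072 over all genes) were 3 lower and 2 higher (CEBPB and PIM1). Leaving out a library gave 2 to 5, with 2 without No CM replicate 3. Over all genes the omissions in Cont CM against No CM gave 1075 to 2770 calls. CEBPD and BCL3 were called lower there in all 21 alternatives, SOCS3 in 20 and SOCS1 in 17. Signs changed in 2 cases, neither near a call, PIM1 in TIS CM against Cont CM with the trend removed (-0.00871, with and without the replicate block) and SOCS2 in TIS CM against No CM without No CM replicate 1 (-0.0284, where the omissions gave up to 0.14, without No CM replicate 2).

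Deviations from the group means correlated between -0.187 and 0.0838 for same-numbered libraries and between -0.129 and 0.201 for differently numbered ones. With so few libraries a group, these values cannot show whether the numbers mark shared cultures or days. The replicate block left 0, 0 and 4 calls among the 9 genes in TIS CM against Cont CM, TIS CM against No CM and Cont CM against No CM. Over all genes it left 126, 4 and 1461, against 623, 119 and 2272 without it. The cause of these changes was not tested. Depth limits CISH, with 23 to 49 fragments a library.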
